A study of Mus musculus with 144 samples.

Results

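Whole-blood mRNA was compared between mice sampled 6 months and 1 month after they had received only the vehicle of a lung toxicity study. A total of 15 vehicle mice entered the comparison, 8 sampled at 6 months and 7 sampled at 1 month, which made up 2 of the 18 groups, 10.8% of the mice and 10.4% of the arrays of the whole series. They were all the mice labelled DM at these months, and a further 8 DM mice sampled at 12 months were used as levels only. DM stands for dispersion medium, a phosphate-buffered saline without calcium or magnesium that held d-glucose, mouse serum albumin and a lung surfactant lipid, and it was given once into the throat by pharyngeal aspiration. All mice were male C57BL/J6, were 7 weeks old when obtained and were housed 1 per cage. The exposed mice of the series received 1, 10, 40 or 80 µg of multi-walled carbon nanotubes (MWCNTs) in DM or 120 µg of crocidolite asbestos. Of these, 41 were sampled at 6 months and 35 at 1 month. The study used the DM mice as controls for each month, and their change between months shows how the blood of a mouse without particles differed over the same interval. Different mice were sampled at each month. Time since aspiration, age of the mouse and date of collection therefore cannot be told apart.

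Natural killer (NK) cells are lymphocytes of the innate immune system that kill virus-infected and malignant cells. They carry inhibiting and activating receptors, many of them killer cell lectin-like receptors, and they kill by releasing perforin and granzymes from granules. Their survival and activation depend on cytokines such as interleukin 15, interleukin 12 and interleukin 18. In mouse blood they circulate beside B cells, T cells, monocytes, neutrophils, platelets and red cells.

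The genes of the NK cell led the comparison. Lymphocyte genes are known targets of the RUNX transcription factors, whose core sequence is TGTGGT, or ACCACA on the opposite strand. Shown are the 250 bases before the RefSeq start of 4 NK genes that were lower in DM mice at 6 months, written 5′ to 3′ on the strand of the gene (build GRCm38.p6). Capitals mark the RUNX core on either strand.
Gzma, chr13:113100982-113101231, minus strand: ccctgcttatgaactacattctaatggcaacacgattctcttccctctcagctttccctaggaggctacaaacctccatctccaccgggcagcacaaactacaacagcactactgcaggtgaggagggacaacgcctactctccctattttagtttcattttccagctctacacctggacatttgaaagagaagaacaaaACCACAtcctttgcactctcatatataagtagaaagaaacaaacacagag
Prf1, chr10:61297586-61297835, plus strand: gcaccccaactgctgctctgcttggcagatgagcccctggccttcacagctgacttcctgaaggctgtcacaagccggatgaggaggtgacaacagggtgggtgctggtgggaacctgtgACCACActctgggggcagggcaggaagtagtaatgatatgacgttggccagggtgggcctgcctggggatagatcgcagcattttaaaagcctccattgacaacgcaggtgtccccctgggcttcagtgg
Ncr1, chr7:4337465-4337714, plus strand: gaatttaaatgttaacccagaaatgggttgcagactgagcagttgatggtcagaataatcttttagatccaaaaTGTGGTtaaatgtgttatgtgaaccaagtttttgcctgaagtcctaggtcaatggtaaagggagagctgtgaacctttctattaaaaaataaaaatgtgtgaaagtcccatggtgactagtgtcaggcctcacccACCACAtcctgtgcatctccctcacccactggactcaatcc
Klrc1, chr6:129678974-129679223, minus strand: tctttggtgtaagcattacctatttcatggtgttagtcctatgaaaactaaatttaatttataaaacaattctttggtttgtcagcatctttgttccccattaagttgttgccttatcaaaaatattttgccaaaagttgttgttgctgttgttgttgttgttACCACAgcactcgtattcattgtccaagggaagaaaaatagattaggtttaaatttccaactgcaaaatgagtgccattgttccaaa
The first letter of the core lay 50 bases before the start in Gzma, 130 in Prf1, 176 and 41 in Ncr1 and 87 in Klrc1. Among the 12 NK cell marker genes measured, 11 were matched to a RefSeq promoter, and 9 of them held the core in at least 1 window. Klrb1c, the 1 marker that did not pass as lower, was among these 9. Counted by window, 10 of the 14 windows of the 11 matched genes held the core (71.4%). The share was 14% of all RefSeq windows (4614 of 32851) and 12% of windows of genes on the array. Of the 654 matched genes that were lower at 6 months, 99 held the core (15.1%). The share was 13.8% of the 16990 matched genes on the array and 15.9% of all 27025 genes, so the lower genes as a whole were near both. The T-box motif, AGGTGT or ACACCT on the opposite strand, was in 3 of the 11 NK genes (27.3%). It was in 12.9% of the genes on the array and 13.6% of all genes. Both words were searched on both strands, and they can share letters where they adjoin. The 2 motifs were chosen after the values were seen and are a description of these windows, in which binding was not measured.

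A total of 23521 probe sets carried exactly 1 gene symbol and were tested, for 22180 genes. Signals are given as log2 values after robust multi-array averaging (RMA), so a difference of 1 is a doubling. The 95th percentile of the olfactory receptor probe sets, genes not used in blood, was 1.75, and 10543 probe sets (44.8%) lay above it on average. Above that limit were all 13 B cell markers, all 12 platelet markers and 11 of 12 NK cell markers measured, against 2 of 12 markers of lung epithelium. The globin genes themselves were not analysed here. An array's agreement with the others was the median of its correlations with them, and 13 arrays of the series lay under 0.85. One of these was mouse 2 of the 6-month DM group, at 0.849, and none was in the 1-month DM group. Array spread, another measure of each array, was largest in mice 6, 4 and 1 of the 1-month group (up to 0.692). In the 6-month group it was largest in mice 2, 6 and 3 (up to 0.651). Those 1-month arrays had the lowest medians of their group, and those 6-month arrays had the highest. Leaving out any of these mice lowered the number of probe sets that differed, as given below. With all mice and array spread as a covariate, 8.6% of the probe sets differed. Whether array spread accounts for the lower number without these mice was not tested. Mice are numbered within their group.

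A total of 926 of 23521 probe sets differed between DM mice at 6 months and DM mice at 1 month (3.94%; limma, adjusted p below 0.10). Of these, 814 were lower at 6 months (3.46%) and the remainder were higher (0.476%). At least a 1.5-fold change was seen in 856 of the 926 (3.64% of all tested), 795 lower and 61 higher. The 8 mice of 6 months did not overlap with the 7 mice of 1 month in 0.48% of the probe sets. The median change over all probe sets was 0.03 on the log2 scale, and over the 10543 brighter probe sets it was -0.19, which is the value to set beside the medians of lists of bright genes. Lower probe sets were mostly bright, since 95.6% of them lay above the olfactory limit, whereas 31.3% of the higher ones did. After a second quantile normalization 1.36% of the probe sets passed, 0.808% lower and 0.548% higher. The number also depended on single mice. It was 294 without mouse 2, 206 without mouse 3 and 158 without mouse 6 of the 6-month group. Without mouse 1, 2, 4 or 6 of the 1-month group it was 188, 588, 234 or 25, and without mouse 3 it was 1431. Leaving out both mice 2 and 3 of 6 months left 57 calls, 46 lower and 11 higher. On arrays 1 to 96 alone 74 probe sets passed. Each passing gene named below was lost in at least 1 fit that left out a single mouse, unless it is said to have passed in all 15 of them. In 13 of the named genes that passed, the mean of the lower DM group lay under the olfactory limit, so that the size of their change is uncertain. They were Klra9, Klra14-ps, Fasl, Mx1, Oasl1, Ifi208, Gimap9, Kdr, Tm4sf1, Prdm8, Tgm3, Acyp2 and 1 immediate-early gene.

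NK cell markers were the group with the highest share of lower genes among the marker lists. Of 12 markers measured, 11 were lower at 6 months and none was higher, with a median change of -1.38. The mean over the 12 markers was 2.90 in the lowest, 3.33 in the median and 3.41 in the highest DM mouse at 6 months, and 3.77, 4.77 and 5.10 in the lowest, median and highest DM mouse at 1 month. Every mouse of 6 months thus lay below every mouse of 1 month. Among the 7 mice of 6 months and 5 of 1 month on arrays 1 to 96, this mean changed by -1.33, and among the 1 mouse of 6 months and 2 of 1 month on later arrays by -1.11. Without mice 2 and 3 of 6 months it changed by -1.31. In bulk blood, fewer NK cells and less RNA per NK cell cannot be told apart. Without mouse 6 of the 1-month group, 7 of the 12 markers remained lower, and these 7 (Ncr1, Gzma, Klrd1, Txk, Prf1, Klrk1 and Klre1) were lower in each of the 15 fits that left out 1 mouse.

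The inhibiting and activating receptors came first. Klrc1 encodes NKG2A, the inhibiting receptor that pairs with CD94. Its signal was 0.99, 1.46, 1.96, 1.99, 2.67, 2.88, 2.98 and 3.23 in DM mice at 6 months, and 4.03, 4.07, 4.35, 4.37, 4.59, 4.82 and 5.22 in DM mice at 1 month. The groups were separated by a gap, and the change was -2.22 ± 0.42 (SE; adjusted p = 0.00315), or 4.67-fold lower. Klrd1 encodes CD94 itself. In DM mice at 6 months it lay between 3.27 and 4.87 with a median of 4.15, and in DM mice at 1 month between 5.32 and 6.34 with a median of 5.73, again without overlap (-1.66 ± 0.29, adjusted p = 0.00195). Ncr1, which encodes the activating receptor NKp46, the marker that defines NK cells in the mouse, lay between 3.51 and 5.39 (median 4.66) at 6 months, and between 5.99 and 6.84 (median 6.44) at 1 month. It changed by -1.83 ± 0.39 (adjusted p = 0.0128). For Klrk1, the activating receptor NKG2D, the range was 2.05 to 3.57 (median 2.60) at 6 months, and 2.84 to 4.84 (median 4.22) at 1 month (-1.36 ± 0.29, adjusted p = 0.0128). The groups overlapped here because mouse 7 of 1 month, at 2.84, lay within the range of the older group.

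**Figure D1:**
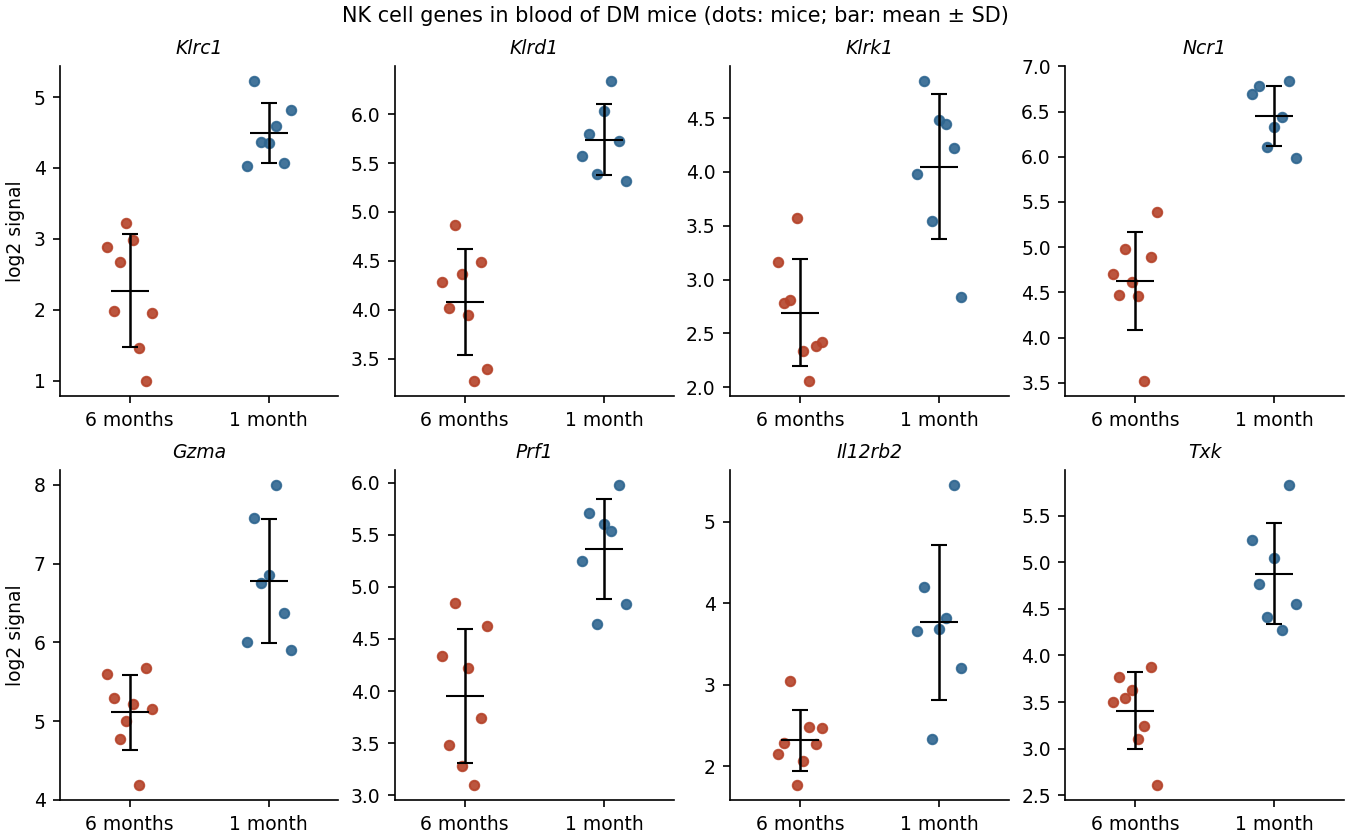
Log2 signal of 8 NK cell genes in each DM mouse at 6 months (left, 8 mice) and at 1 month (right, 7 mice), with the group mean and SD. In Klrc1, Klrd1, Ncr1, Gzma and Txk every mouse of 6 months lies below every mouse of 1 month, and in Klrk1, Prf1 and Il12rb2 the groups overlap.

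Other members of the killer cell lectin-like receptor family, a set chosen after the values were seen, were lower as well. Of 21 members measured, 9 were lower and none was higher, with a median change of -0.66. Beside the receptors above they were Klre1 (-1.06), Klrb1f (-1.34), Klri2 (-1.38), Klrb1b (-1.20), Klrg1 (-1.12) and Klra9 (-1.57). Some branches of the family, such as the Klra genes, hold near-identical copies, so that the probe set of a single Klra gene can take up the signal of a neighbour. Klrb1c, the gene of the NK1.1 antigen, was the 1 marker of the NK list that did not pass, at -0.49 (adjusted p = 0.446). Klra9, Klrb1b, Klrb1f, Klri2 and Klrg1 no longer passed without mouse 6 of the 1-month group.

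Genes of granule proteins were lower in part. Gzma encodes granzyme A, a serine protease delivered into the target cell. Its signal lay between 4.19 and 5.68 (median 5.19) at 6 months, and between 5.90 and 8.0 (median 6.75) at 1 month. No mouse of 6 months reached the lowest mouse of 1 month, and the change was -1.67 ± 0.33 (adjusted p = 0.00891). Prf1 encodes perforin, which opens the membrane of the target cell for granzymes. It lay between 3.10 and 4.85 (median 3.99) at 6 months, and between 4.65 and 5.98 (median 5.53) at 1 month (-1.41 ± 0.31, adjusted p = 0.0128). The 2 groups overlapped by a small margin. Gzmb, the gene of granzyme B, lay between 1.52 and 2.58 at 6 months, and between 1.92 and 4.81 at 1 month (-1.56 ± 0.35, adjusted p = 0.0163), and did not pass without mouse 6 of 1 month. Nkg7, which encodes a granule membrane protein, changed by -1.14 ± 0.27 (adjusted p = 0.0204) and was likewise lost without that mouse. Of 9 granzyme genes measured, only Gzma and Gzmb passed, and 4 of the 9 lay below 0, with a median change of 0.02. Fasl, the gene of a death ligand on killer lymphocytes, changed by -0.84 ± 0.24 (adjusted p = 0.0552), where mouse 6 of 1 month stood at 4.08 and the next mouse at 2.33.

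Cytokine receptors, kinases and transcription factors of killer lymphocytes formed a further group. Il2rb encodes the beta chain shared by the receptors of interleukin 2 and interleukin 15. It lay between 2.65 and 4.75 (median 4.21) at 6 months, and between 4.91 and 7.59 (median 6.13) at 1 month, without overlap (-1.88 ± 0.41, adjusted p = 0.0128). Mouse 6 of 6 months held the lowest value and mouse 6 of 1 month the highest. Without mouse 6 of 1 month Il2rb did not pass. Il12rb2, a chain of the interleukin 12 receptor, lay between 1.77 and 3.04 (median 2.28) at 6 months, and between 2.34 and 5.45 (median 3.69) at 1 month (-1.45 ± 0.27, adjusted p = 0.00269). Txk, a Tec-family kinase of T and NK cells, lay between 2.61 and 3.87 (median 3.52) at 6 months, and between 4.28 and 5.83 (median 4.77) at 1 month (-1.47 ± 0.31, adjusted p = 0.0128). Il12rb2 and Txk passed in every fit without 1 mouse. The transcription factors Tbx21 (-0.83 ± 0.25, adjusted p = 0.0645), Eomes (-0.87 ± 0.25, adjusted p = 0.0531) and Id2 (-1.37 ± 0.35, adjusted p = 0.0315), which direct the development of NK and effector T cells, were lower too. None of these 3 factors passed without mouse 6 of 1 month.

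Chemokine genes of lymphocytes were next. Cxcr6, a chemokine receptor of NK and memory T cells, lay between 1.27 and 2.41 (median 1.66) at 6 months, and between 1.54 and 5.36 (median 3.59) at 1 month (-1.73 ± 0.43, adjusted p = 0.0293). Xcl1 encodes lymphotactin, which NK cells release to attract dendritic cells. It lay between 2.18 and 3.62 at 6 months, and between 3.31 and 5.45 at 1 month (-1.49 ± 0.38, adjusted p = 0.0333). Ccl5, a chemokine of T and NK cells, lay between 6.54 and 7.57 at 6 months, and between 7.59 and 9.01 at 1 month (-1.01 ± 0.28, adjusted p = 0.0505). The groups did not overlap in Ccl5, by the narrowest of margins. All 3 calls were lost without mouse 6 of 1 month.

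The T cell receptor complex was the second group to be lower. Of 10 members measured, 6 were lower and none was higher, with a median change of -0.87. Their mean was 4.10, 4.39 and 4.80 in the lowest, median and highest mouse at 6 months, and 4.77, 5.00 and 5.70 at 1 month, so that the groups touched. Cd3e, a signalling chain of the complex, lay between 5.76 and 7.04 (median 6.49) at 6 months, and between 7.26 and 8.65 (median 7.74) at 1 month (-1.27 ± 0.28, adjusted p = 0.0148). Cd6, a surface molecule that tunes T cell activation, lay between 2.60 and 3.52 at 6 months, and between 3.71 and 4.41 at 1 month (-0.97 ± 0.22, adjusted p = 0.0159). Neither gene had overlapping groups, and Cd6 was the 1 member lower in every fit without 1 mouse. Cd4 (-1.31), the kinase gene Zap70 (-1.04), Cd3g (-0.93) and Cd5 (-0.76) also passed, while Cd8a (-0.67, adjusted p = 0.109) and Cd3d (-0.80, adjusted p = 0.103) did not. The count of 6 was 4 without mouse 2, 3 or 6 of 6 months, and 2, 3 or 1 without mouse 1, 4 or 6 of 1 month. It was 2 without both mice 2 and 3 of 6 months. Cd4, Cd3g and Cd5 did not pass after a second quantile normalization.

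Markers of naive and of effector and memory T cells were divided. Of 14 effector and memory markers, 6 were lower (Il2rb, Id2, Ly6c2, Ccl5, Eomes and Itga4) and none was higher, with a median change of -0.73. Cd44, Gzmk, Lag3 and Gzmm in the same list lay between -0.03 and 0.14. Some genes of this list are active in NK cells as well, and which cells account for the 6 lower genes was not tested. Of 8 naive T cell markers, Il7r (-1.02), Satb1 (-0.85) and Lef1 (-0.85) were lower, with a median change of -0.73. Il7r, Satb1 and Lef1 did not pass after a second quantile normalization. Of 8 probe sets for variable and joining segments of the T cell receptor, 3 were lower, with a median of -0.41: Trbv13-2 (-1.59), Trav9d-3 (-1.20) and Trav12-2 (-1.13). Such segments include near-identical copies whose signal can be shared. The effector count was 3, 2, 4 and 0 without mouse 3 or 6 of 6 months or mouse 2 or 6 of 1 month, and 1 without both mice 2 and 3 of 6 months. The naive count was 0 without any of mice 2, 3 and 6 of 6 months or 1, 4 and 6 of 1 month, 1 without mouse 7 of 1 month and 2 without mouse 5 of 6 months. The Gimap GTPases, survival factors of lymphocytes and a family chosen after the values were seen, lay below 0 in all 8 members, and 5 were lower. None of those 5 passed without mouse 6 of 1 month.

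**Figure D2:**
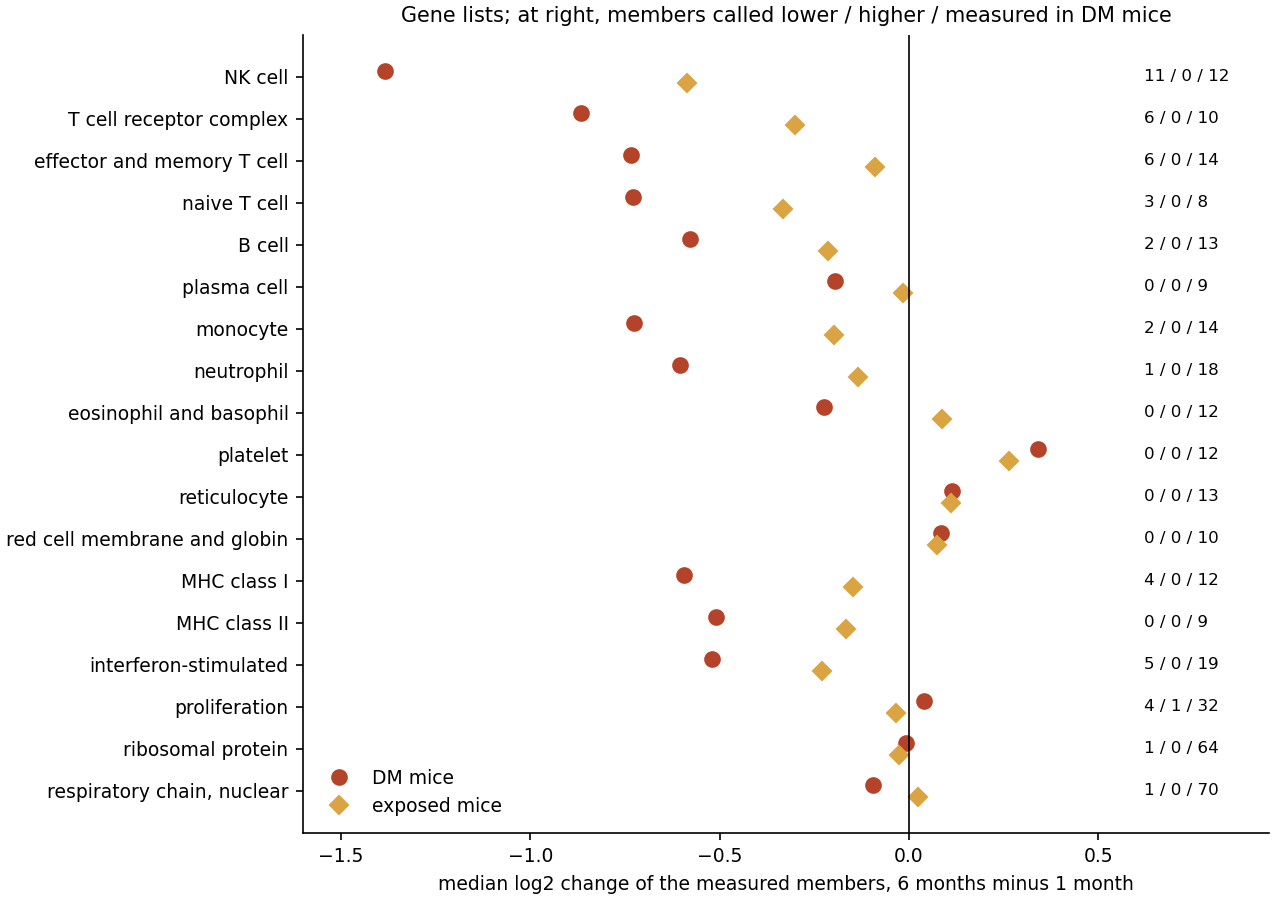
Median log2 change, 6 months minus 1 month, of gene lists in DM mice (circles) and in exposed mice (diamonds), with the number of genes lower, higher and measured in DM mice. NK cell markers have the lowest DM median, -1.38 against -0.59 in exposed mice, and platelet markers have a DM median of 0.34.

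Of 13 B cell markers, 2 were lower and all had a change below 0, with a median of -0.58. The 2 were Fcer2a, the low-affinity receptor of immunoglobulin E (-0.83, adjusted p = 0.0808), and Fcmr, the receptor of immunoglobulin M (-0.69, adjusted p = 0.0878). Cd79a, a signalling chain of the B cell receptor, lay between 7.23 and 9.28 (median 8.29) at 6 months, and between 8.47 and 9.36 (median 9.06) at 1 month (-0.65 ± 0.24, adjusted p = 0.128). The groups overlapped and the difference did not pass. The mean of the B cell markers changed by -0.68 on arrays 1 to 96 and differed by 0.01 on the later arrays, which held 1 mouse of 6 months and 2 of 1 month. Both calls were lost without mouse 2, 3, 5 or 6 of 6 months or mouse 1, 2, 4 or 6 of 1 month, and 1 was lost without mouse 7 of 1 month. Neither Fcer2a nor Fcmr passed after a second quantile normalization. Of 9 plasma cell markers, 9 MHC class II genes and 18 immunoglobulin variable and joining segments, none passed in either direction, with medians of -0.20, -0.51 and -0.41. In the fits without 1 mouse, H2-Oa passed in 5 of 15, Igkv5-43 in 2, and H2-Aa and Xbp1 in 1 each.

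Few myeloid markers passed. Of 14 monocyte markers, 2 were lower (14.3%, against 3.46% of all probe sets), with a median change of -0.73. The 2 shares are not matched for brightness. Of the 14 markers, 13 lay above the olfactory limit, where 778 of 10543 probe sets were lower. Chil3, a chitinase-like protein of classical monocytes, lay between 2.41 and 6.31 (median 5.02) at 6 months, and between 5.63 and 7.09 (median 6.21) at 1 month (-1.59 ± 0.52, adjusted p = 0.0832). The 6-month mice were spread widely, and the lowest of them lay far under every mouse of 1 month. Fcgr4, an Fc receptor of non-classical monocytes, changed by -0.79 ± 0.26 (adjusted p = 0.0878). Of 18 neutrophil markers, only Csf3r, the receptor of granulocyte colony-stimulating factor, was lower (-0.95 ± 0.31, adjusted p = 0.0887), with a median of -0.60 over the list. Of 12 eosinophil and basophil markers none passed (median -0.22). The monocyte count was 0 without mouse 2, 3 or 6 of 6 months or mouse 1, 2 or 6 of 1 month, and 1 without mouse 4 or 8 of 6 months or 4 or 5 of 1 month. Neither Chil3 nor Fcgr4 passed after a second quantile normalization. Csf3r was lost without mouse 2, 3, 4 or 6 of 6 months or mouse 1, 2, 4 or 6 of 1 month, and up to 3 neutrophil markers passed in the other such fits. Of 12 Toll-like receptor genes, a family chosen after the values were seen, Tlr7 (-1.21), Tlr13 (-1.27) and Tlr8 (-0.92) were lower, and each was lost without mouse 6 of 1 month. Slc29a3, a nucleoside transporter of lysosomes and 1 of the 15 largest decreases, lay between 1.92 and 4.24 (median 3.76) at 6 months, and between 4.35 and 5.79 (median 5.09) at 1 month (-1.53 ± 0.36, adjusted p = 0.0204). Its groups did not overlap, and it was lost without mouse 6 of 1 month.

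Genes of the interferon response and of antigen presentation were lower in part. Of 19 interferon-stimulated genes, 5 were lower (Ddx58, Zbp1, Oas2, Oasl1 and Mx1) and none was higher, with a median change of -0.52. Ddx58 encodes RIG-I, a sensor of viral RNA. It lay between 3.17 and 4.31 (median 3.76) at 6 months, and between 4.24 and 5.64 (median 5.20) at 1 month (-1.33 ± 0.28, adjusted p = 0.0128). Only the edges of the groups met, and Ddx58 was the 1 gene of the list lower in every fit without 1 mouse. Zbp1, a sensor of nucleic acids, changed by -1.12 ± 0.27 (adjusted p = 0.0242). Ifit1 (-0.21), Isg15 (-0.20) and Rsad2 (-0.15), genes strongly induced by type I interferon, did not pass. The count was 2 without mouse 2, 3 or 6 of 6 months or 1 or 4 of 1 month, 3 without mouse 8 of 6 months or 2 of 1 month, and 1 without mouse 6 of 1 month. Without both mice 2 and 3 of 6 months it was 1. The median of the list mean over mice was 5.12 at 1 month, 4.68 at 6 months and 4.51 at 12 months.

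Of 12 genes of MHC class I presentation, 4 were lower: the regulator Nlrc5 (-1.07), the peptide transporter Tap1 (-1.04), the heavy chain H2-K1 (-0.88) and the immunoproteasome subunit Psmb9 (-0.75). The median over the list was -0.59, and B2m, the light chain, was at 0.05 (adjusted p = 0.775). Tap1 lay between 4.85 and 5.84 at 6 months, and between 6.05 and 6.81 at 1 month, with no overlap. The count was 2 without mouse 3 of 6 months, 1 without mouse 6 of 6 months or mouse 1 or 4 of 1 month, 3 without mouse 2 of 6 months or mouse 2 or 5 of 1 month, and 0 without mouse 6 of 1 month. A pair of families induced by interferon was chosen after the values were seen. Of 11 Ifi200 genes, 5 were lower, led by Ifi205 (-1.61 ± 0.37, adjusted p = 0.0174), and of 10 guanylate-binding protein genes, Gbp9 (-1.37), Gbp8 (-1.31) and Gbp4 (-1.25) were lower. Ifi205 passed in every fit without 1 mouse, and the others did not pass without mouse 6 of 1 month. Both families hold near-identical copies, so that the probe sets of single members are uncertain.

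Platelet markers lay on the other side of 0. All 12 had a positive change, with a median of 0.34, and none passed the test. Pf4, a chemokine of platelet granules, lay between 9.37 and 10.16 (median 9.88) at 6 months, and between 9.02 and 9.75 (median 9.32) at 1 month (0.51 ± 0.18, adjusted p = 0.106). Gp9, a chain of the von Willebrand factor receptor, lay between 11.55 and 12.09 at 6 months, and between 10.80 and 11.77 at 1 month (0.40 ± 0.16, adjusted p = 0.164). The groups overlapped in both genes. Platelet markers that passed numbered 2 without mouse 3 of 1 month or after a second quantile normalization, and 4 without the arrays of low correlation. Red cell membrane genes (10 measured), heme synthesis genes (10) and reticulocyte genes (13) held no gene that passed, with medians of 0.08, -0.06 and 0.11. Mouse 6 of 6 months, which had the lowest means of NK, T, B, neutrophil and monocyte markers, had the highest means of platelet markers (9.83) and reticulocyte genes (6.60) of the 6-month group.

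**Figure D3:**
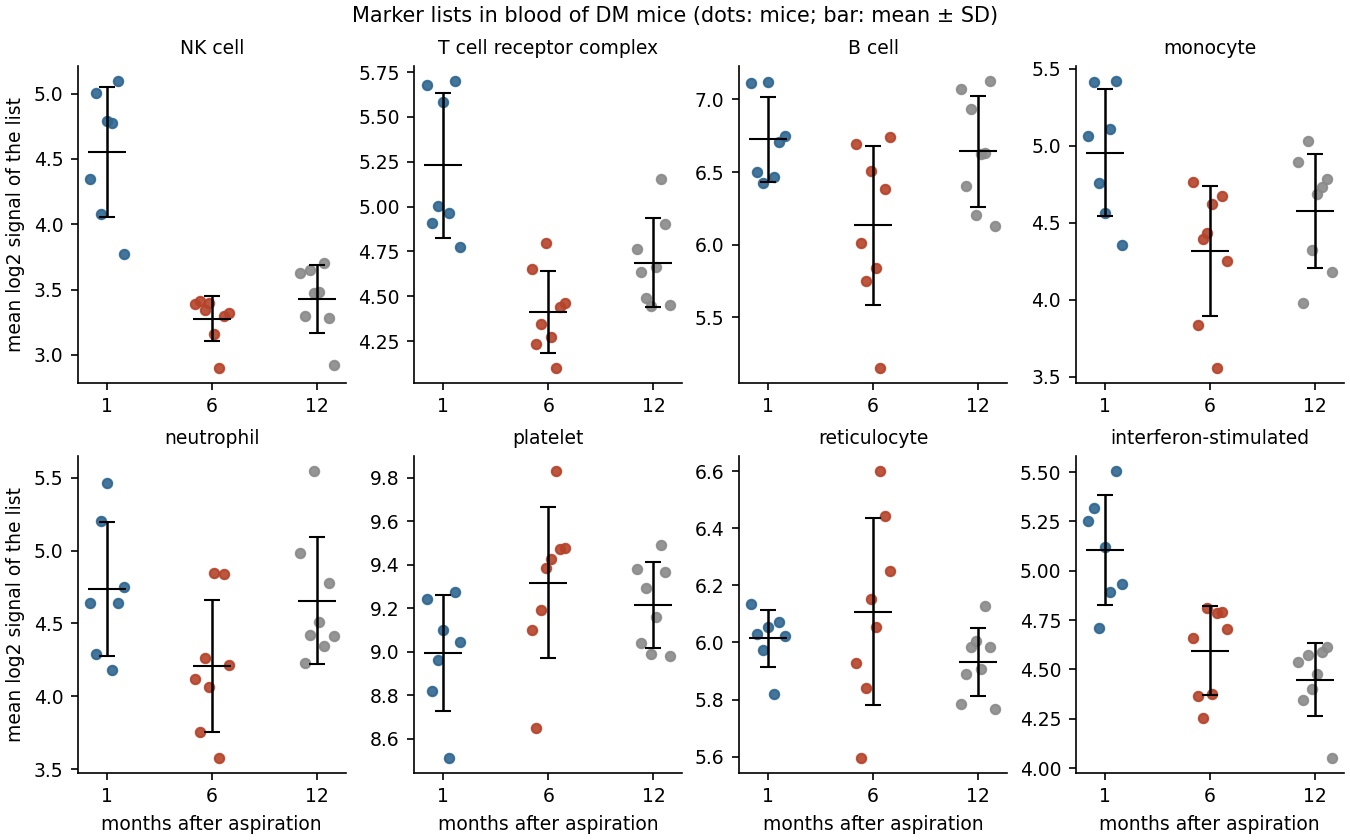
Mean log2 signal of 8 gene lists in each DM mouse at 1, 6 and 12 months after aspiration. The NK cell means at 6 months (2.90 to 3.41) lie below those at 1 month (3.77 to 5.10), and those at 12 months lie between 2.92 and 3.70.

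At 12 months, which was not tested, the NK cell mean was 2.92 in the lowest, 3.48 in the median and 3.70 in the highest DM mouse, below every DM mouse of 1 month. The order over time was thus 4.77, 3.33 and 3.48 by median at 1, 6 and 12 months, and the 6-month and 12-month mice overlapped. Klrc1 averaged 2.94 ± 0.64 and Ncr1 4.07 ± 0.52 at 12 months (SD, n = 8). The T cell receptor complex had a median of 5.00 at 1 month, 4.39 at 6 months and 4.65 at 12 months. For B cell markers the medians were 6.70, 6.19 and 6.63, for monocyte markers 5.06, 4.41 and 4.71, and for neutrophil markers 4.64, 4.17 and 4.47. In these 4 lists the 12-month median lay between those of 6 months and 1 month.

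Process genes passed in small numbers. The share of lower genes exceeded the 3.46% of all probe sets in some lists and lay below it in others. That 3.46% is not matched for brightness. Above the olfactory limit, 778 of 10543 probe sets were lower, and 14.9% were when these bright probe sets were fitted alone. The share was 12.5% in the proliferation list, 13.3% in the glucocorticoid-responsive list and 11.1% in the immediate-early list. Of their measured genes, 29 of 32, 15 of 15 and 16 of 18 lay above the limit. Among ribosomal protein genes it was 1.56%, and among respiratory chain genes 1.43%. Of 32 proliferation genes, 4 were lower (Mcm2, Mcm3, Mcm4 and Mcm6, subunits of the replicative helicase) and Tyms, the thymidylate synthase gene, was higher (0.67 ± 0.23, adjusted p = 0.0989), with a median of 0.04. None of the 4 helicase subunits passed without mouse 6 of 1 month or after a second quantile normalization. Of the 4, 1 passed without mouse 2, 3 or 6 of 6 months or mouse 1 or 4 of 1 month, and 2 without mouse 2 of 1 month. In the glucocorticoid-responsive list of 15, Txnip (-0.83, without overlap) and Zbtb16 (-0.81) were lower (median -0.34). In the circadian list of 17, Bhlhe40 was lower (-0.91; median -0.22), and in the inflammation list of 15, Ccl3 was lower (-0.90; median -0.06). Among 18 immediate-early genes 2 were lower (median -0.37), 1 of them Zfp36 (-0.88). Hsp90b1 (-0.78) was the 1 lower gene of 17 heat shock and unfolded protein response genes (median -0.22), Rpl4 (-0.50) the 1 of 64 ribosomal protein genes (median -0.01), Sdhd (-0.78) the 1 of 70 nuclear respiratory chain genes (median -0.10) and Kdr (-0.60) the 1 of 12 endothelial genes (median 0.11). No gene passed among 15 p53 and senescence genes, 17 genes of oxidative stress defence, 30 proteasome genes or 25 replication-dependent histone genes, with medians of -0.01, -0.01, -0.21 and 0.07. After a second quantile normalization the proteasome median was 0.04 and the respiratory chain median 0.10. Skin and hair (11), skeletal muscle (12) and lung epithelium (12) markers had none that passed, with medians of 0.15, 0.12 and -0.01. Of 1105 olfactory receptor genes, 7 were higher (median 0.11), and the genes of the mitochondrial genome were not measured here. Every single gene named here as passing was lost in at least 1 fit without 1 mouse.

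The genes with the largest increases were of mixed function. Apol11a, an apolipoprotein L gene, lay between 5.07 and 6.83 (median 6.37) at 6 months, and between 3.42 and 5.08 (median 4.12) at 1 month. Only mouse 3 of 6 months, at 5.07, lay below the highest mouse of 1 month, at 5.08. The change was 1.98 ± 0.60 (adjusted p = 0.0643), or 3.93-fold higher, and it was lost without mouse 2 or 6 of 6 months or mouse 1, 4 or 6 of 1 month. Tspan17, a tetraspanin that binds the protease ADAM10, lay between 5.84 and 7.11 (median 6.63) at 6 months, and between 5.18 and 5.83 (median 5.37) at 1 month (1.12 ± 0.25, adjusted p = 0.0174). Wwtr1, which encodes the Hippo pathway coactivator TAZ, lay between 2.26 and 4.15 (median 3.06) at 6 months, and between 1.47 and 2.59 (median 1.82) at 1 month (1.18 ± 0.29, adjusted p = 0.0282). Tm4sf1, a membrane protein of the transmembrane 4 family, lay between 1.97 and 3.39 (median 2.62) at 6 months, and between 1.21 and 2.13 (median 1.82) at 1 month (0.99 ± 0.22, adjusted p = 0.0139). These last 3 genes passed in every fit without 1 mouse, and were the 3 of the 15 largest increases that did.

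Gng11, a G protein gamma subunit, lay between 8.12 and 8.77 (median 8.48) at 6 months, and between 7.22 and 8.06 (median 7.62) at 1 month (0.76 ± 0.19, adjusted p = 0.0293), without overlap. Triqk, a small membrane protein gene, was separated in the same way, between 4.09 and 5.18 at 6 months, and between 3.04 and 3.91 at 1 month (1.02 ± 0.29, adjusted p = 0.0566). Both calls were lost without mouse 6 of 1 month. Clec4g, a C-type lectin (1.27 ± 0.36, adjusted p = 0.0513), and Nbea, which encodes neurobeachin (0.81 ± 0.28, adjusted p = 0.0991), were higher with overlap. The other 7 of the 15 largest increases that the naming rule gave (Prdm8, Rny3, Cela1, Nbdy, Tgm3, Acyp2 and Zfp697) also passed. Of these, Prdm8, Tgm3 and Acyp2 lay under the olfactory limit in 1-month mice and cleared it through the 6-month group, and the others ranged from 1.67-fold to 1.75-fold. In all, 3 of the 15 genes had groups that did not overlap, against 7 of the 15 with the largest decreases and 0.48% of all probe sets. Both sets of 15 were chosen for their change in these same mice, so the counts are given as a description.

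**Figure D4:**
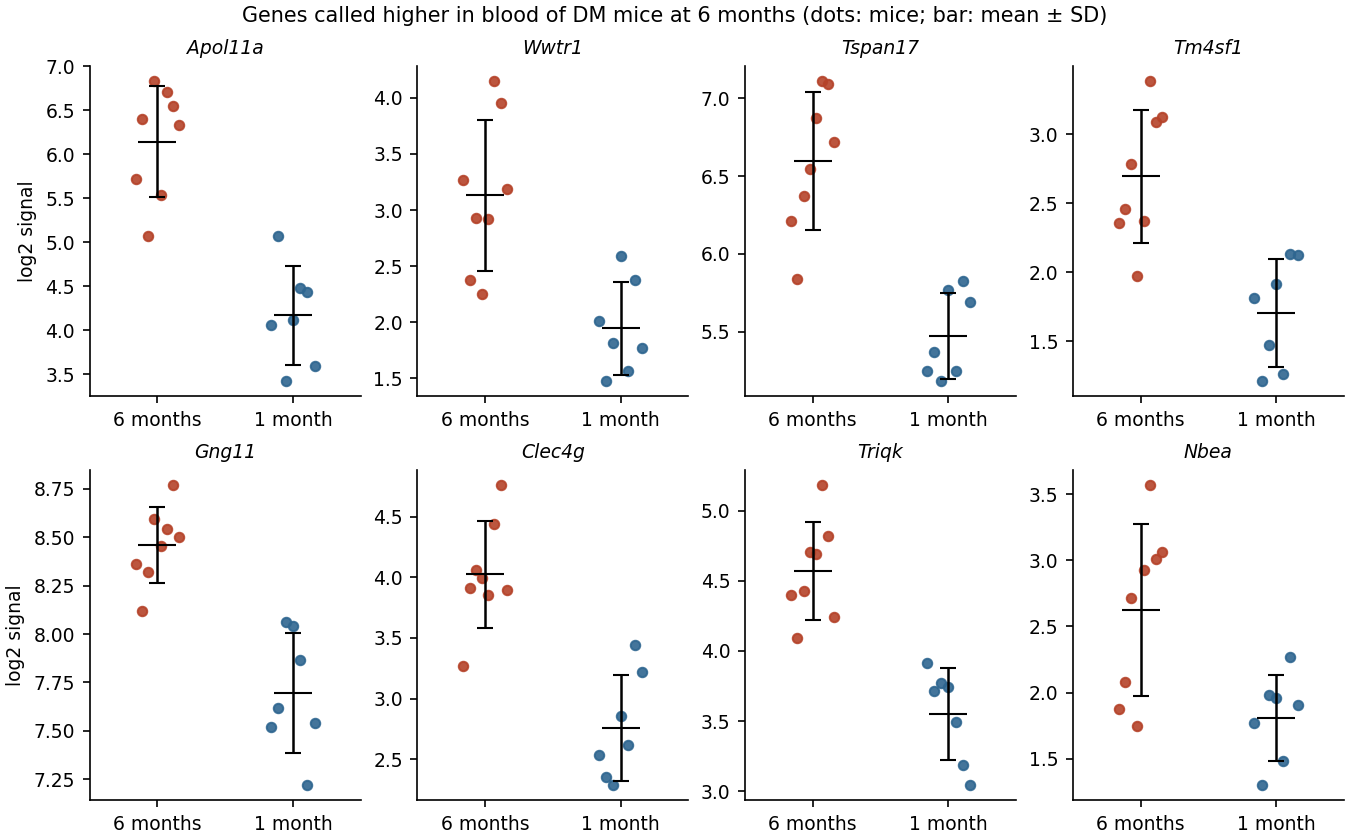
Log2 signal of 8 genes that were higher in DM mice at 6 months (left, 8 mice) than in DM mice at 1 month (right, 7 mice), with the group mean and SD. The groups do not overlap in Tspan17, Gng11 and Triqk, and in Apol11a 1 mouse of 6 months (5.07) lies just below the highest mouse of 1 month (5.08).

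A total of 20 probe sets passed in all 27 alternatives, that is the 15 fits without 1 mouse and 12 other settings. Of these, 17 were lower and 3 were higher. Among the 17 were 7 NK receptor, granule and kinase genes (Klrc1, Klrd1, Ncr1, Klrk1, Gzma, Prf1 and Txk), the cytokine receptor gene Il12rb2, the pseudogene Klra14-ps, Cd6, Ddx58 and Ifi205. The others were Arsb, a lysosomal sulfatase (-1.27), Txlna, a syntaxin-binding protein (-1.02), Zfp518a (-1.25), Aph1a, a subunit of gamma-secretase (-1.37), and Nhlrc3 (-1.10). Txlna lay between 1.47 and 2.19 at 6 months, and between 2.31 and 3.41 at 1 month, without overlap, as did Zfp518a, between 3.25 and 4.32 at 6 months, and between 4.53 and 5.33 at 1 month. The 3 higher genes were Tspan17, Wwtr1 and Tm4sf1. These genes were picked after their values were seen.

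The same months were compared in the exposed mice, which are other animals and share no control with the DM mice. The average change over the 4 MWCNT groups and the crocidolite group passed in 1.27% of the probe sets, 162 lower (0.689%) and the remainder higher (0.578%), and 34 of them changed at least 1.5-fold. Of the 814 probe sets lower in DM mice, 91 were also lower in exposed mice (11.2%), none was higher, and 786 lay below 0 (96.6%), against 43.9% of all tested. This last share is not matched for brightness, since 95.6% of the 814 lay above the olfactory limit, against 44.8% of all tested. Of those higher in DM mice, 15 were also higher in exposed mice and 96 lay above 0 (85.7%), against 56.1% of all tested. The median change of the 814 was -0.86 in DM mice and -0.24 in exposed mice. The 814 were chosen for their change in DM mice, so their smaller median in other mice is given as a description. Across all 23521 probe sets, which are not independent, the changes correlated with r = 0.596. Tested directly, the DM change minus the exposed change passed in 0 probe sets by limma, with 1442 at an unadjusted p below 0.05.

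Of the 12 NK cell markers, 7 were also lower in exposed mice, with a median change of -0.59. Klrc1 changed by -2.22 ± 0.42 in DM mice and by -0.82 ± 0.19 in exposed mice (adjusted p = 0.0129 in exposed mice), and the difference of -1.40 ± 0.46 did not pass (adjusted p = 0.758). Klrd1 changed by -0.88 ± 0.13 (adjusted p = 1.75e-06) and Ncr1 by -0.95 ± 0.17 (adjusted p = 0.000441) in exposed mice. Gzma changed by -0.74 ± 0.15 there (adjusted p = 0.003). In each of these 4 genes all 5 exposed groups lay below 0. Platelet markers, of which none passed in DM mice, had 4 of 12 higher in exposed mice (median 0.26), among them Gp9 (0.30 ± 0.07, adjusted p = 0.0179 in exposed mice). The 15 genes with the largest decreases in DM mice lay below 0 in exposed mice without exception, at -0.95 to -0.39, and 10 of them passed. These genes were chosen for their size in DM mice, and the test of the difference called none of them (smallest adjusted p = 0.758).

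**Figure D5:**
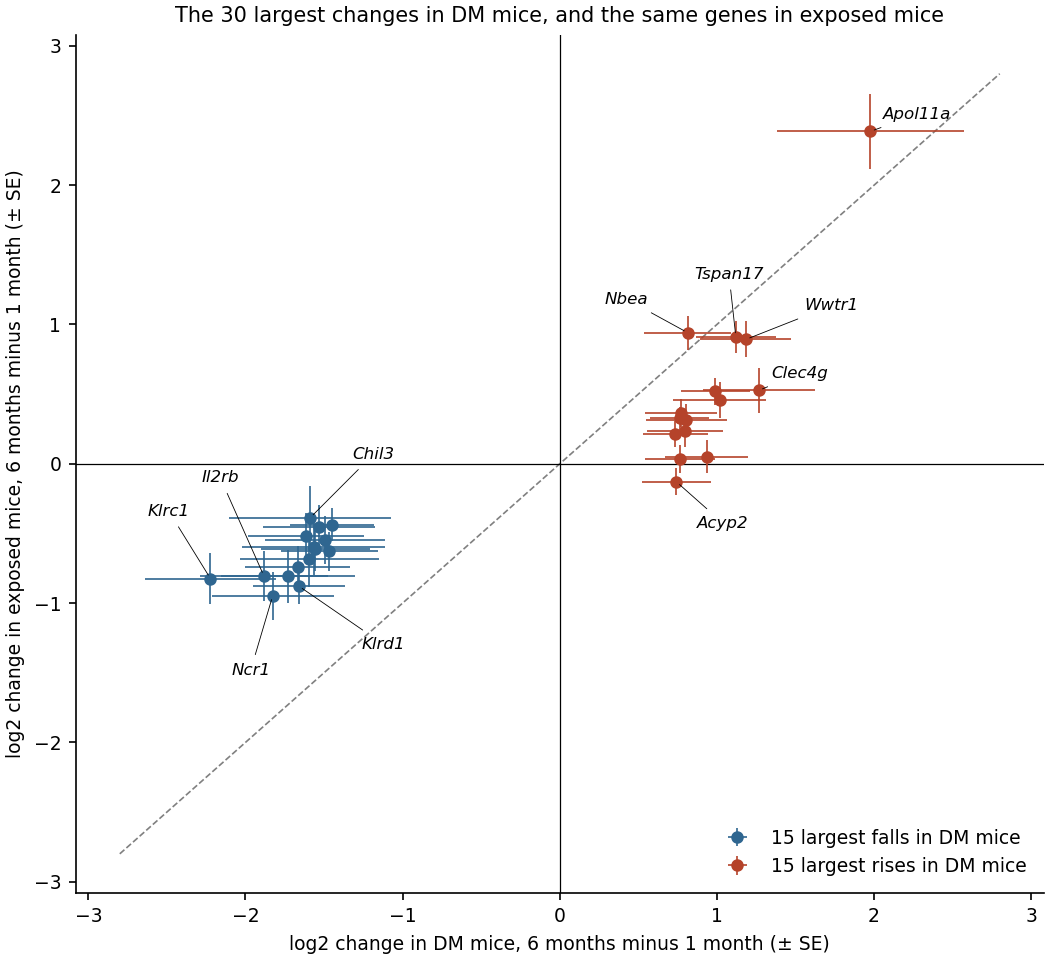
Log2 change, 6 months minus 1 month, of the 30 genes with the largest changes in DM mice (x axis) and in exposed mice (y axis), with SE bars, where the dashed line marks equal change. All 15 decreases lie below 0 and above the dashed line in exposed mice, and Apol11a (1.98 in DM mice, 2.39 in exposed mice) lies beyond it.

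Some genes changed by a like amount in both. Apol11a was higher by 2.39 ± 0.27 in exposed mice (adjusted p = 3.87e-11), by 2.96, 2.72, 1.91 and 1.38 at 1, 10, 40 and 80 µg of MWCNT and by 2.96 after crocidolite. The DM change minus the exposed change was -0.41 ± 0.65. Tspan17 (0.91, adjusted p = 3.93e-09), Wwtr1 (0.89, adjusted p = 8.08e-07) and Nbea (0.94, adjusted p = 3.17e-08) were higher in exposed mice too, each in all 5 groups. Of the 15 genes with the largest increases in DM mice, 14 lay above 0 in exposed mice and 9 passed. Syt14, a synaptotagmin gene chosen after its values were seen, lay between 3.61 and 4.56 (median 4.07) at 6 months, and between 4.55 and 5.71 (median 5.05) at 1 month in DM mice (-0.99 ± 0.21, adjusted p = 0.0128), and passed in every fit without 1 mouse. In exposed mice its change was -1.02 ± 0.10 (adjusted p = 3.25e-15), and the difference between the changes was 0.03 ± 0.23. At 12 months the DM mice averaged 6.12 ± 1.03 in Apol11a, 6.83 ± 0.22 in Tspan17, 3.44 ± 0.39 in Wwtr1 and 3.56 ± 0.26 in Syt14 (SD, n = 8).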

How the data were processed

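The authors hybridised whole-blood RNA of each mouse to an Affymetrix mouse gene array and deposited 1 table of log2 values for 41345 probe sets on 144 arrays, which they made by robust multi-array averaging with the oligo package (versions are not given in the sources used here). RMA removes background and normalizes the arrays to each other, so values are relative to the array and have no count depth, and the number of mice limits the precision. The array medians still differed, from 1.38 to 1.47 in DM mice at 1 month and from 1.45 to 1.59 in DM mice at 6 months. Repeat arrays of 5 mice were averaged. Probe sets were named through the platform annotation, and 23521 had 1 symbol, 1820 several and 16004 none; 23328 gene IDs were found in the RefSeq table of GRCm38.p6 and 193 were not.

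Limma (version 3.58.1, R version 4.3.3) was fitted to all 18 groups of 139 mice, with p-values adjusted by Benjamini-Hochberg over the 23521 probe sets and a threshold of 0.10. Groups were taken from the labels. Replicate numbers follow the order of the samples within a group. The fit was tested on simulated data. No batch or plate was labelled, and array number, divided after 96, stood in for one. Named genes were the 15 largest increases and 15 largest decreases that passed and whose mean in the higher DM group exceeded 95% of olfactory receptor probe sets. Predicted genes, microRNAs, small nucleolar and small nuclear RNAs, receptors of smell and pseudogenes were left out of these. Other small RNAs, such as Rny3, were kept. The 4 genes of smallest p from each list were named as well. Others are said to be chosen after their values were seen. The comparison, the lists and the motifs were chosen with earlier results of these data known. Litter and collection day were not labelled. The SE and p-values rest on a spread between mice pooled over all 18 groups, and not on the DM mice alone. The SD of a gene could differ between the DM groups, as in Gzmb (0.38 at 6 months and 1.15 at 1 month). With the methods' analysis of variance 56 of the 106 named genes that passed kept their call, and Gzmb was among the 50 lost. Promoter windows came from RefSeq.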

Additional observations from a re-analysis of the deposited data

Results flagged for a closer look

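In 222 groups of values, those of the passing genes named above and of 6 further markers in the DM mice of each month, 11 held a mouse far from the rest by Dixon's test at its 95% level. Chance alone gives about 1 in 20 when groups are independent. These groups come from the same mice, and most genes were chosen for passing, so the number expected by chance is not known. Most of the 11 lay in mouse 6 of the 6-month group or mouse 6 of the 1-month group. Leaving out these mice, each in its own fit, left 158 and 25 probe sets that passed. In the 6-month group, mouse 6 stood apart low in Il2rb (2.65, next 3.80), Slc29a3 (1.92, next 3.20), Trav9d-3 (5.53, next 6.90), Cd5 (3.98, next 4.54) and Gimap9 (0.623, next 1.23). Mouse 3 stood apart low in Mcm2 (2.20, next 2.64), and mouse 5 stood apart high in Kdr (2.74, next 1.60). In the 1-month group, mouse 6 stood apart high in Csf3r (8.67, next 7.73) and Fasl (4.08, next 2.33) and low in Prdm8 (0.435, next 0.936), and mouse 2 stood apart high in Tgm3 (2.35, next 1.31).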

How the results depend on the processing

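No paired analysis was possible because the mouse numbers differ between the groups. The share of tested probe sets that differed between 6 and 1 months was 3.94% in DM mice and 1.27% in exposed mice. It was 6.28% in DM and 2.66% in exposed mice with only the compared groups fitted, 8.59% and 7.58% with array weights, 1.36% and 2.68% after a second quantile normalization (1.62% higher and 1.06% lower in exposed mice), 15.8% and 6.17% of the 10543 bright probe sets alone, 0.315% and 0.191% on arrays 1 to 96, 8.6% and 2.39% with array spread as a covariate, 2.5% and 5.24% without arrays of low correlation, and 2.27% and 2.6% with the methods' analysis of variance. Without both 6-month mice of lowest correlation, an alternative chosen after seeing the data, it was 0.242% in DM mice. It was 3.68% with a trended robust fit, 3.92% with an array number term and 3.52% with the first array of each repeated mouse. Without 1 DM mouse it ranged from 0.106% to 6.08%. The difference between the changes had 0 calls in each setting in which limma was run. No named gene that passed changed direction in any of the 27 alternatives. All kept their call with array weights, 57 after a second quantile normalization and 56 with the methods' analysis of variance. The number kept was 32 on arrays 1 to 96, 22 without mouse 6 of 1 month and 33 without both 6-month mice. Of 88 that did not pass, 28 passed with array weights, 26 with array spread as a covariate and 21 among the bright probe sets alone, while Ppox (0.033) and Slc25a38 (0.059) changed sign after a second quantile normalization. The causes were not tested.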
